A study of Mus musculus with 10 samples.

Results

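The ligands Bmp4 and Nodal, the inhibitors Lefty1, Lefty2, Smad6 and Smad7, and the targets Id1, Id2 and Id3 belong to the BMP and Nodal branches of TGF-beta signalling. These 9 genes, of 24386 counted, were picked by name for their place in the pathways, with earlier results of these data known. Counts of calls among them, set beside the share of all genes, are therefore descriptions and not tests of the set. The nascent RNA of the 9 genes was followed by TT-seq, which isolates RNA labelled with 4-thiouridine (4sU) during a short pulse, in TX1072 cells. TX1072 is a single wild-type (WT) female embryonic stem cell line with a C57BL/6 (B6) and a Mus musculus castaneus (Cast) genome, in which doxycycline (DOX) switches on Xist from the B6 X chromosome. Cells were kept for 24 h in serum medium with LIF and the kinase inhibitors known as 2i, then given DOX at 1 µg/ml, and were labelled with 0.5 mM 4sU for 5 min at 0, 4, 8, 12 or 24 h. Each time had 2 replicates, each from 2 pooled flasks, so there were 10 samples. The 0 h samples had the same medium and labelling as the others and stood without DOX. Hours of DOX, the presence of Xist RNA and time in culture went together and cannot be told apart.

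The total count per sample was 18809046 to 22274929, of which 49.2% to 52.8% could be given to an allele. Xist, in counts per 1000000 total counts (CPM), stood at 1.53 and 1.41 without DOX and at 329 to 664 with it, and was lower at 24 h (483 and 416) than at 12 h (641 and 511). The summed CPM of 10 embryonic stem cell markers was 2859 to 3174, although Sox2 was listed at 0 in every sample. Markers of primitive endoderm summed to 10.5 to 15.5 CPM, of mesoderm to 7.05 to 11.2, of neural cells to 6.02 to 10.2 and of fibroblasts to 2.96 to 6.06. Trophoblast markers summed to 20.8 to 25.7 CPM at 0 h and 14.05 to 16.0 at 24 h, with Hand1 at or near 0 throughout. The 0 h pair stood apart, with a chi-square per degree of freedom of 10.8 between its replicates against 5.08 to 5.81 at the other times. The changes of the 9 genes at 24 h are therefore also given without each 0 h sample.

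BMP ligands such as BMP4 bind serine/threonine kinase receptors that activate SMAD1, SMAD5 and SMAD9. Nodal acts through activin receptors and a co-receptor to activate SMAD2 and SMAD3. The Id genes, which encode proteins that hold back basic helix-loop-helix factors, are classical BMP targets, and the Lefty genes are classical Nodal targets whose products block Nodal itself. SMAD6 and SMAD7 are inhibitory SMADs that are switched on by the same signals and dampen them. In mouse embryonic stem cells BMP with LIF is known to sustain self-renewal through Id proteins, and Nodal signalling is active at a low level.

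The promoters of Id2, Id3, Smad6, Bmp4 and Nodal, 5 of the 9 genes, were matched in RefSeq (GRCm38.p6) as the 250 bases before and 50 after each start site. They were searched on both strands for elements that SMAD complexes are known to bind, the palindrome GTCTAGAC and the GC-rich GGCGCC, and for the element TGTGGATT of FOXH1, the partner of SMAD2 in Nodal signalling. The palindrome lay across the start site of Smad6, at -4 to +4, and was held by 0.21% of 32851 promoters of the same length. The GC-rich element lay in the Id2 promoter at -231 to -226 and was held by 11.87% of promoters. The FOXH1 element, held by 0.86%, was in none of the 5, and no motif searched overlapped another here. Both stretches with a match are shown, with the element in capitals, since they hold letters known to be bound by SMAD complexes. Smad6 is read from the minus strand of chr9:64022056-64022205 and Id2 from the minus strand of chr12:25096193-25096342.
Smad6: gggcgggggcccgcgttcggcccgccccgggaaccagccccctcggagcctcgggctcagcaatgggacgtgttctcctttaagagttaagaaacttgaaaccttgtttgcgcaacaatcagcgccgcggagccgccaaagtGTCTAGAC
Id2: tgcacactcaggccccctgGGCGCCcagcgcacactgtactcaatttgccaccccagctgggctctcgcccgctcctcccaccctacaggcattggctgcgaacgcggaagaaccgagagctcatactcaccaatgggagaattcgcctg
A match describes the letters only, and no binding was measured.

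Per kb of gene span, introns included, the order of levels at 0 h was Smad7 (15.1 CPM per kb), Lefty2 (12.1), Lefty1 (5.85), Nodal (4.96), Id3 (2.64), Smad6 (1.71), Id1 (1.59), Bmp4 (0.898) and Id2 (0.791). The 2 samples of Smad6 overlapped those of Id1, and those of Bmp4 overlapped those of Id2. All other neighbours in this order were apart. At 24 h Nodal, at 4.70 CPM per kb, stood above Lefty1, at 3.07, and Id1, at 1.98, above Smad6, at 1.56, with no overlap between neighbours. Lefty1 and Nodal, an inhibitor and its target ligand, thus changed places in the order. Among the genes in the tables, the mean level per kb over all 10 samples was at the 98.7th percentile for Smad7, the 97.8th for Lefty2 and the 63.9th for Id2, the ends of the range for these genes.

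**Figure D1:**
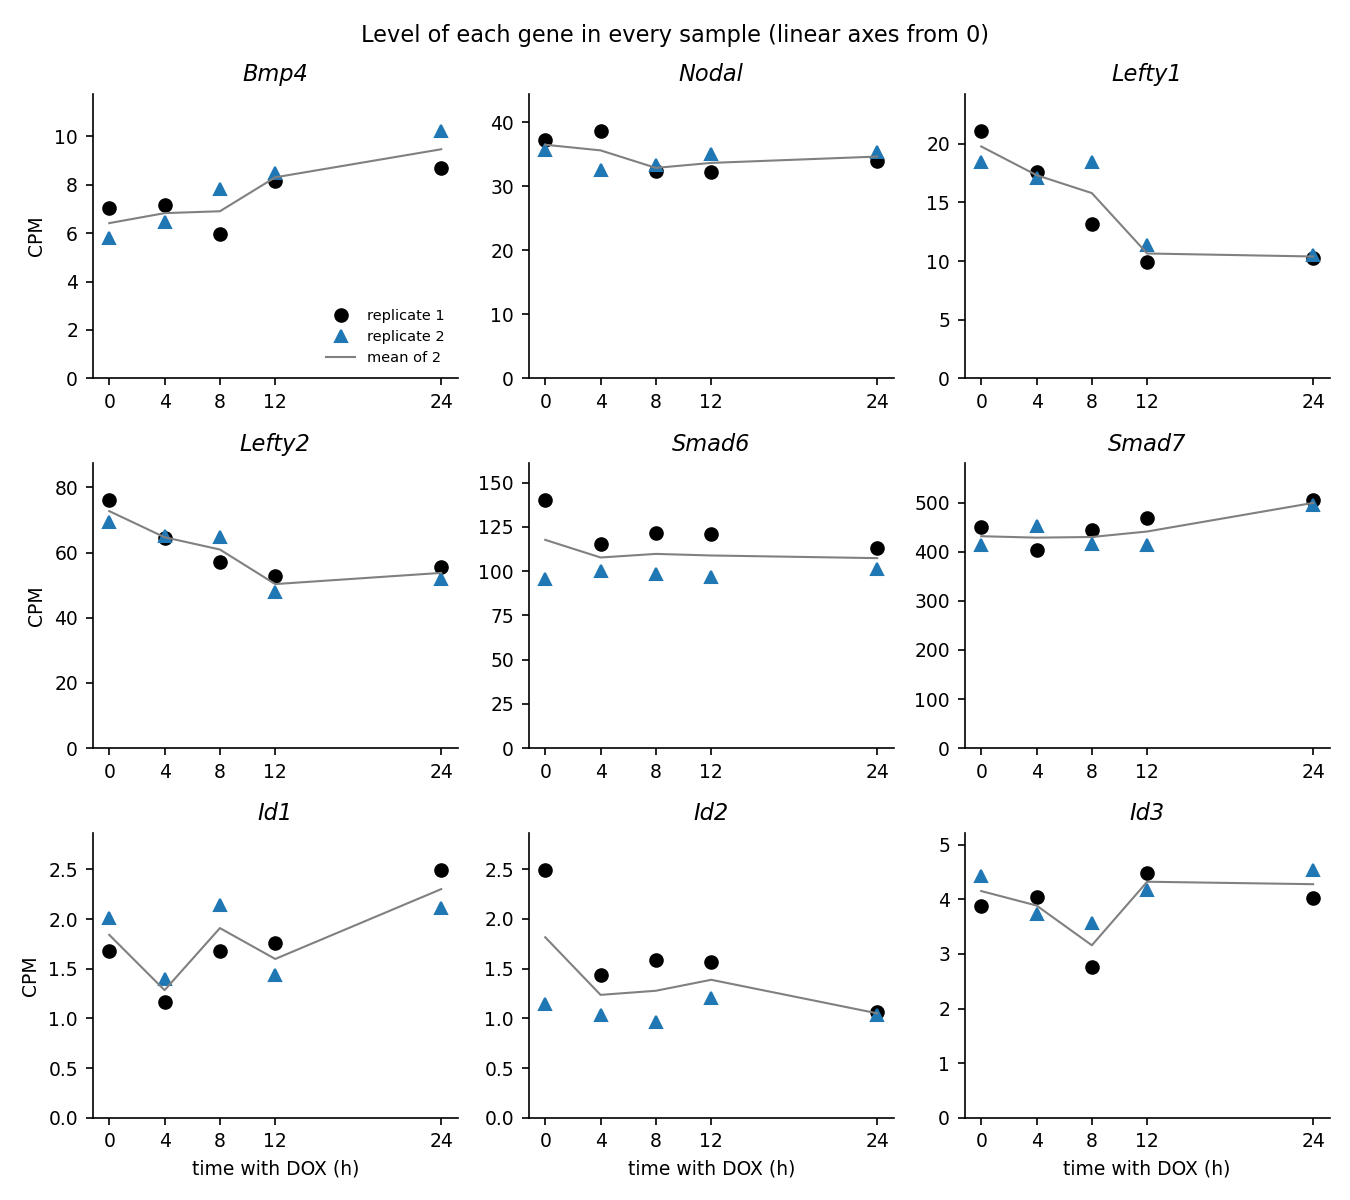
Level of each of the 9 genes (CPM, linear axes from 0) against hours with DOX in all 10 samples, with replicate 1 as circles, replicate 2 as triangles and the mean of 2 as a line. Lefty1 and Lefty2 are lower in both 12 h and both 24 h samples than in both 0 h samples, while Smad6 differs more between replicates than between times.

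Changes in total nascent counts were tested with edgeR's quasi-likelihood test with Benjamini-Hochberg adjustment over the 14525 genes that passed the filter on low counts, and a gene is called where its adjusted p is under 0.05. All 9 genes passed the filter. Against 0 h, 0 of the 9 were called at 4 h and 0 at 8 h, where 0.0138% and 0.193% of all tested genes were called. At an unadjusted p under 0.05 the counts were 0 and 1 (Lefty2), and DESeq2 called 0 at both times. At 12 h and at 24 h, 2 of the 9 were called, Lefty1 and Lefty2, both lower, against 0.95% and 1.85% of all tested genes. These shares include X-linked genes, while the 9 are all autosomal. Of the 138 and 269 genes called in all, 24 and 77 were autosomal, and 14019 autosomal genes were tested. The median log2 change of the 9 was -0.07 at 12 h and -0.06 at 24 h, beside -0.004 and 0.008 over all tested genes. In the test of any change over the 5 times the same 2 genes were called, against 1.25%. The 4 comparisons share the 0 h samples and are not independent of each other.

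Replicate numbers deviated together at every time, so a fit with the replicate number as a block was run too. With the block, 2 of the 9 were called at 12 h, 3 at 24 h and 3 for any change, where 4.94%, 5.32% and 6.12% of all tested genes were called. The gene added at 24 h and for any change was Bmp4, which rose. Between successive times, 0 of the 9 were called from 4 to 8 h, from 8 to 12 h and from 12 to 24 h, where 0.0%, 0.0% and 0.00688% of all tested genes were called. The unadjusted counts in these 3 steps were 0, 3 (Id3, Lefty1 and Lefty2) and 0, and DESeq2 called 0 of the 9 in each. With the block, Lefty1 was called from 8 to 12 h, where 0.282% of all genes were called.

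**Figure D2:**
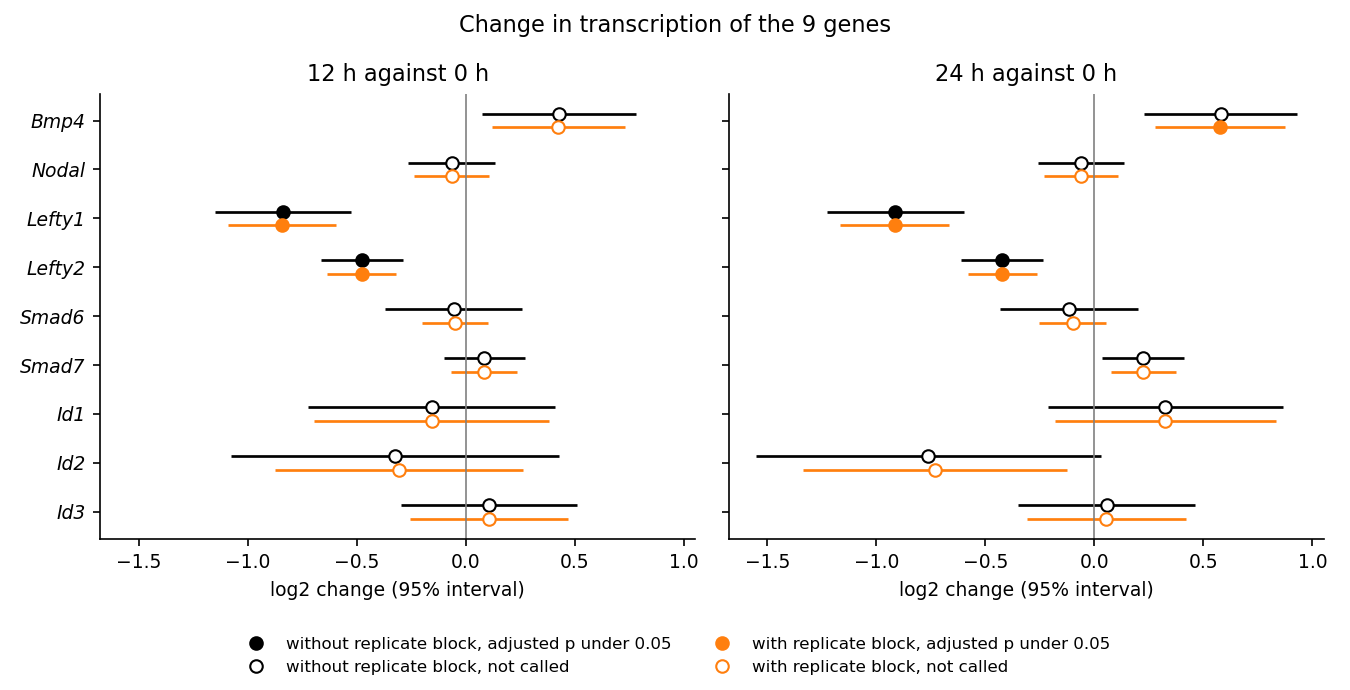
Log2 change in total nascent counts of the 9 genes at 12 h (left) and 24 h (right) against 0 h, with 95% intervals, without (black) and with (orange) the replicate block, and filled points for an adjusted p under 0.05. The intervals of Lefty1 and Lefty2 lie below 0 at both times, and Bmp4, at 0.58 at 24 h, is filled only with the block.

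Bmp4 encodes the BMP ligand of the set, and its span (mm10, as for all spans here) is chr14:46383525-46390669 on the minus strand. The 0 h samples gave 7.04 and 5.79 CPM, the 4 h samples 7.18 and 6.48, and the 8 h samples 5.98 and 7.83. Later samples gave 8.14 and 8.47 CPM (12 h) and 8.70 and 10.24 CPM (24 h). The 4 samples at 12 and 24 h lay above both 0 h samples, and those at 4 and 8 h overlapped them. The log2 change at 24 h was 0.58 (SE 0.164, 95% interval 0.23 to 0.93), a 1.49-fold level. Its edgeR adjusted p was 0.112. Without 0 h replicate 1 the log2 change was 0.70, and without 0 h replicate 2 it was 0.46. With the replicate block the change was 0.58 (SE 0.147) with an edgeR adjusted p of 0.0112, and Bmp4 rose by that fit. Without 0 h replicate 2 the blocked value was 0.38 and the call was lost (edgeR adjusted p = 0.299). The same held without 24 h replicate 2 (0.45, edgeR adjusted p = 0.279). Without 0 h replicate 1 it was 0.77 (edgeR adjusted p = 0.0171). Of 14019 autosomal genes tested, 97.62% had a lower log2 change at 24 h. Bmp4 is overlapped on the opposite strand by Gm15217 and Gm15222, and the authors' counting used strand.

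Nodal encodes the ligand of the other branch, at chr10:61417972-61425338 on the plus strand. Its samples read 37.30 and 35.70 CPM before DOX, 38.70 and 32.54 after 4 h, and 32.45 and 33.32 after 8 h. The 12 h samples read 32.28 and 35.06 CPM and the 24 h samples 33.98 and 35.33. The levels at 8, 12 and 24 h lay just under both 0 h samples, and those at 4 h overlapped them. The log2 change at 24 h was -0.06 (SE 0.092, 95% interval -0.26 to 0.14; edgeR adjusted p = 0.897), so a change in either direction of more than 0.26 lay outside the interval. Without 0 h replicate 1 or 2 the value was -0.05 or -0.08.

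Lefty1 and Lefty2, the secreted inhibitors of Nodal, are neighbours on the plus strand, Lefty2 at chr1:180893108-180899107 and Lefty1 at chr1:180935022-180938401, with 35915 bp between them. Their coding sequences of 1107 bases each were 91.9% identical in the GENCODE transcripts, with no gap, and the longest shared run was 140 bases. Of the 75-base windows of their transcripts, 11.2% for Lefty1 and 7.2% for Lefty2 also occurred in the other gene, and none in any other gene. At 150 bases, the read length in the labels, none of the windows of either gene occurred in another. Bases 46 to 165 of the coding sequences are shown because there the copies differ most, at 34 positions, which are in capitals. Within the coding sequences, only reads trimmed to 140 bases or fewer could fit both copies without a mismatch. Introns were not compared, and exons take up 52.0% of the counted span of Lefty1 and 43.5% of that of Lefty2.
Lefty1: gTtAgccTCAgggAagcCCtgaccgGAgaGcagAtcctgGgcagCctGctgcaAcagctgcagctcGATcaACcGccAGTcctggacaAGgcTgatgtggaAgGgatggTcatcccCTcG
Lefty2: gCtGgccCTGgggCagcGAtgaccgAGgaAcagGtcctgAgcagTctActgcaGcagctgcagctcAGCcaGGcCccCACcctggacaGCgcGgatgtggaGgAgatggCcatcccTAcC

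Lefty1 stood at 21.12 and 18.42 CPM in the 0 h samples, 17.60 and 17.05 in the 4 h samples, and 13.12 and 18.47 in the 8 h samples. The 12 h samples held 9.90 and 11.39 CPM and the 24 h samples 10.28 and 10.51. Every sample at 4, 12 and 24 h was below both 0 h samples, and at 8 h replicate 2 overlapped them. Lefty1 fell by 0.84 on the log2 scale at 12 h (SE 0.146, 95% interval -1.15 to -0.53; edgeR adjusted p = 0.0092) and by 0.91 at 24 h (SE 0.147, 95% interval -1.23 to -0.60; edgeR adjusted p = 0.00255). The level at 24 h was 0.531-fold that at 0 h. The edgeR adjusted p for any change over time was 0.00552. From 12 to 24 h the log2 change was -0.07 (SE 0.154), and from 8 to 12 h it was -0.55 (SE 0.149; edgeR adjusted p = 0.979, and 0.0435 with the replicate block). Only 0.72% of 14019 autosomal genes had a lower log2 change at 24 h.

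The 24 h call of Lefty1 held without 0 h replicate 1 (-0.84, edgeR adjusted p = 0.0296) and without 0 h replicate 2 (-0.99, edgeR adjusted p = 0.00884). At 12 h it was lost without 0 h replicate 1 (-0.76, edgeR adjusted p = 0.087), without 12 h replicate 1 (-0.76, 0.171) and without 12 h replicate 2 (-0.94, 0.0535). Many X-linked genes fell at these times, 113 of the 124 lower calls at 12 h and 191 of 224 at 24 h, and the shared adjustment counts them with the autosomal genes. Adjusted over autosomal genes only, Lefty1 had an edgeR adjusted p of 0.114 at 12 h and 0.022 at 24 h. With the replicate block the calls at both times held in all 10 fits that left out 1 sample.

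Lefty2 gave 75.99 and 69.40 CPM without DOX, 64.33 and 65.04 CPM with 4 h of DOX, and 57.02 and 64.82 CPM with 8 h. With 12 h it gave 52.84 and 47.79 CPM, and with 24 h 55.60 and 51.90 CPM. All 8 samples with DOX were below both 0 h samples. Lefty2 fell by 0.48 on the log2 scale at 12 h (SE 0.088, 95% interval -0.67 to -0.29; edgeR adjusted p = 0.0143) and by 0.42 at 24 h (SE 0.088, 95% interval -0.61 to -0.24; edgeR adjusted p = 0.019), to 0.746-fold. The edgeR adjusted p for any change over time was 0.0342. That call was lost in 7 of the 10 fits that left out 1 sample (edgeR adjusted p = 0.0501 to 0.128), and held without 4 h replicate 1 and without either 8 h sample. Adjusted over autosomal genes only, the edgeR adjusted p was 0.131 at 12 h and 0.0922 at 24 h, so neither call held. The 24 h call was also lost without 0 h replicate 1 (-0.38, edgeR adjusted p = 0.135), without 24 h replicate 1 (-0.47, 0.0877) or without 24 h replicate 2 (-0.39, 0.204). The 12 h call was lost without 0 h replicate 1 (-0.44, edgeR adjusted p = 0.107) or 12 h replicate 2 (-0.40, 0.199). Without 0 h replicate 2 both held, and with the replicate block all 10 such fits called Lefty2 at both times.

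The ratio of Lefty1 to Lefty2 counts was 0.278 and 0.265 in the 0 h samples, 0.274 and 0.262 at 4 h, and 0.230 and 0.285 at 8 h. It was 0.187 and 0.238 in those of 12 h, and 0.185 and 0.202 in those of 24 h. Lefty1 therefore made up less of the pair in the 12 and 24 h samples than in the 0 h samples. The 8 h samples lay on either side of the 0 h samples, with replicate 1 below replicate 2 of 12 h, and the ratio was not tested. Against Nodal, Lefty1 counts went from ratios of 0.566 and 0.516 before DOX to 0.302 and 0.297 after 24 h. Of 9 other genes within 200 kb of the pair, 7 were tested and 0 were called at 24 h, with 1 (Sde2) at an unadjusted p under 0.05 and 0 called by DESeq2 or edgeR with the block. Their log2 changes at 24 h ran from -0.20 to 0.18. In bulk samples such as these, fewer cells that transcribe the pair and less RNA per cell cannot be told apart.

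Both alleles of the pair were lower at 24 h. For Lefty1, B6 reads went from 156 and 189 in the 0 h samples to 94 and 93 in the 24 h samples, and Cast reads from 136 and 118 to 54 and 79. In CPM this was 8.04 ± 0.81 (SD, n = 2) to 4.48 ± 0.43 on B6 and 5.95 ± 0.80 to 3.15 ± 0.565 on Cast. For Lefty2, the B6 level went from 21.9 ± 1.58 to 17.2 ± 1.31 CPM over the same times, and the Cast level from 19.5 ± 1.44 to 14.9 ± 0.84. On the log2 scale, the ratio of B6 to Cast at 24 h differed from that at 0 h by 0.06 (95% interval -0.38 to 0.49) for Lefty1 and 0.05 (-0.18 to 0.28) for Lefty2.

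**Figure D3:**
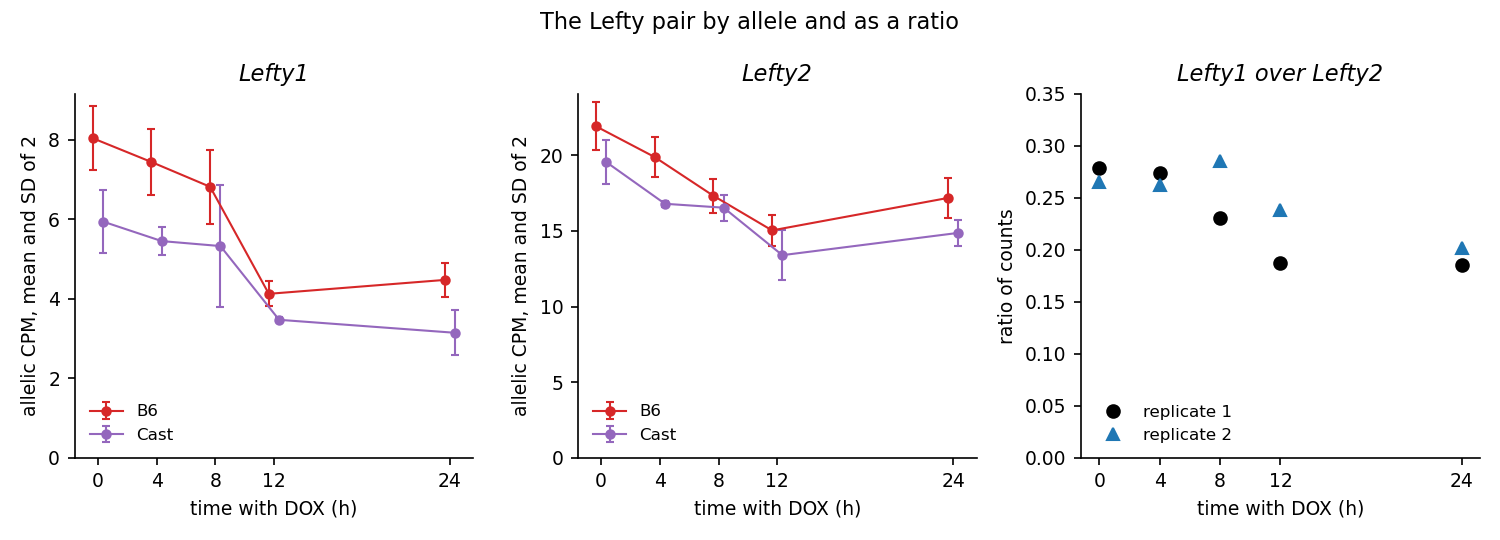
Allelic levels of Lefty1 and Lefty2 (B6 or Cast reads as CPM, mean and SD of 2 replicates) and the ratio of Lefty1 to Lefty2 counts in each sample, against hours with DOX. Both alleles of both genes are lower at 12 and 24 h than at 0 h, and the ratio goes from 0.278 and 0.265 at 0 h to 0.185 and 0.202 at 24 h.

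Smad7 encodes the inhibitory SMAD that acts on both branches, and it lies on chromosome 18 from 75367365 to 75395934 (mm10), on the plus strand. It was the most counted of the 9 genes, with 450.29 and 412.77 CPM before DOX, 404.01 and 453.34 after 4 h, and 443.34 and 416.57 after 8 h. The 12 h samples held 469.33 and 412.99 CPM and the 24 h samples 504.53 and 494.28. Only the 24 h samples lay above both 0 h samples. The log2 change at 24 h was 0.22 (SE 0.088, 95% interval 0.04 to 0.41) with an edgeR adjusted p of 0.34, and of 0.0723 with the replicate block, so Smad7 was not called. Leaving out 0 h replicate 1 or 2 gave 0.27 or 0.18 (edgeR adjusted p = 0.378 and 0.479). Smad6, which acts mainly on the BMP branch, lies on the minus strand of chr9:63953076-64022059. Its CPM in replicates 1 and 2 was 139.96 and 95.35 (0 h), 115.58 and 99.81 (4 h), 121.37 and 98.09 (8 h), 120.87 and 96.79 (12 h) and 113.34 and 101.32 (24 h). Replicate 1 was above replicate 2 at every time, and all 4 times overlapped 0 h. The log2 change of Smad6 at 24 h was -0.12 (SE 0.147; edgeR adjusted p = 0.879), or 0.16 without 0 h replicate 1 and -0.36 without 0 h replicate 2.

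The Id genes gave few reads, with 22 to 49 counts per sample for Id1, 19 to 52 for Id2 and 59 to 101 for Id3, so their intervals are the widest of the set. Id1 (chr2:152736251-152737410, plus strand) read 1.68 and 2.01 CPM (0 h), 1.17 and 1.40 (4 h), 1.68 and 2.14 (8 h), 1.76 and 1.44 (12 h) and 2.49 and 2.11 (24 h). It was lowest at 4 h, below both 0 h samples, and highest at 24 h, above both. Its log2 change at 24 h was 0.33 (SE 0.253, 95% interval -0.21 to 0.86; edgeR adjusted p = 0.751), or 0.18 without 0 h replicate 1 and 0.48 without 0 h replicate 2. Id2 (chr12:25093799-25096092, minus strand) read 2.49 and 1.14 CPM (0 h), 1.44 and 1.04 (4 h), 1.59 and 0.97 (8 h), 1.57 and 1.20 (12 h) and 1.07 and 1.03 (24 h). The single high value was 0 h replicate 1, and the 24 h samples lay just below both 0 h samples. Its log2 change at 24 h was -0.76 (SE 0.371; edgeR adjusted p = 0.512), but -0.13 without 0 h replicate 1 and -1.21 without 0 h replicate 2, so its size rested on the single high sample. Id3 (chr4:136143822-136145392, plus strand) read 3.88 and 4.42 CPM (0 h), 4.04 and 3.73 (4 h), 2.76 and 3.56 (8 h), 4.47 and 4.17 (12 h) and 4.02 and 4.53 (24 h). Only the 8 h samples lay below both 0 h samples. The log2 change of Id3 at 24 h was 0.06 (SE 0.19; edgeR adjusted p = 0.968), or -0.06 without 0 h replicate 1 and 0.17 without 0 h replicate 2.

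The samples of 3 of the 9 genes did not overlap their 0 h samples after 4 h, nor did those of 3 after 8 h, 4 after 12 h and 7 after 24 h. Over all tested genes this held for 24.9%, 30.0%, 40.6% and 35.8%. With 2 samples a group, such separation alone is common, and only the calls above rest on a test.

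Allelic reads were compared in 11906 genes with at least 10 such reads in every sample, which include 8 of the 9 and leave out Id2. The B6 to Cast ratio changed with time in 0 of the 8 at 4, 8, 12 and 24 h against 0 h, by edgeR's quasi-likelihood test with and without the replicate block, and 0 had an unadjusted p under 0.05. Of all genes, 0.353%, 1.65%, 2.16% and 2.65% were called at these times. Over all times together, 5 of the 8 had unequal alleles (edgeR adjusted p under 0.05), as had 70.0% of all genes tested, so that count is no more than the background. The sizes differed widely among the genes. The median pooled B6 share of autosomal genes was 52.23%, with a median log2 ratio, sign left out, of 0.254.

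Bmp4 and Id1, a BMP ligand and a BMP target on different chromosomes, were read mainly from the Cast allele. For Bmp4, 87 of 598 allelic reads were from B6, a share of 14.5% (95% Wilson interval 11.9 to 17.6), and single samples ran from 10.4% to 18.75%. Its log2 B6 to Cast ratio was -2.66 (SE 0.123; edgeR adjusted p = 1.18e-13). For Id1, 25 of 167 allelic reads were from B6, a share of 15.0% (10.35 to 21.2), and single samples ran from 0.0% to 27.3% on 11 to 30 reads. Its log2 ratio was -2.58 (SE 0.307; edgeR adjusted p = 3.07e-07). Every one of the 10 samples had fewer B6 than Cast reads for both genes. Of 11543 autosomal genes, 2.42% had a ratio at least as far from 0 as Bmp4 and 2.6% as Id1. The other 6 genes had pooled B6 shares from 52.8% (Nodal) to 57.9% (Id3).

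**Figure D4:**
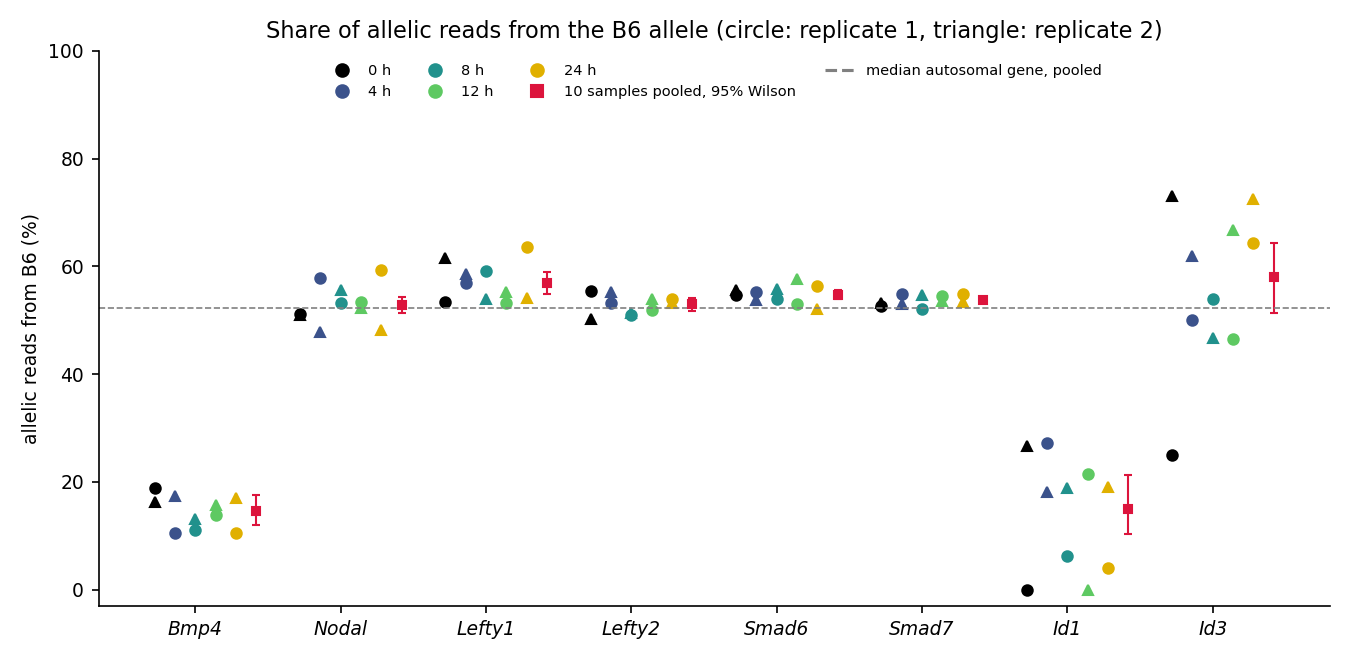
Share of allelic reads from B6 (percent) in each sample by time (colours) and replicate (symbols), with the share pooled over 10 samples and its 95% Wilson interval (red), for the 8 genes tested. Bmp4, at 14.5%, and Id1, at 15.0%, lie far below the dashed median of autosomal genes, 52.23%, and the other 6 lie near it.

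In the wider pathway, 82 further genes were listed by role and 62 of them passed the filter. Against 0 h, 1 was called at 12 h (1.61%) and 0 at 4, 8 and 24 h or for any change. At an unadjusted p under 0.05 the counts at 4, 8 and 24 h and for any change were 1, 2, 10 and 7, and DESeq2 called 0, 0, 2 and 1. The gene called at 12 h was Tgfbr2, a TGF-beta receptor, which fell by 0.68 on the log2 scale (SE 0.149; edgeR adjusted p = 0.0423, and 0.277 over autosomal genes only). Its 0 h samples held 12.2 and 10.3 CPM and its 24 h samples 7.99 and 7.95. The 12 h call was lost in 6 of the 10 fits that left out 1 sample, those without 0 h replicate 1 (-0.58, edgeR adjusted p = 0.264), without 12 h replicate 1 (-0.82, 0.123) or 2 (-0.57, 0.297), without 4 h replicate 2 (0.0513) and without either 24 h sample (0.0608 and 0.0594). The median log2 change of the 62 at 24 h was -0.01, beside 0.008 over all genes.

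With the replicate block, 4 of the 62 were called at 12 h (6.45%) and 7 at 24 h (11.3%), 4 higher and 3 lower, and 4 for any change (6.45%). Over all tested genes the block called 4.94%, 5.32% and 6.12%, so the counts at 12 h and for any change were near that background. The 24 h share was above it, but without the block 0 of the 62 were called at 24 h. The lists were also chosen with earlier results of these data known, so no result about the pathway is read from that share. The 3 lower at 24 h were Tgfbr2, Zfp423, a SMAD partner in the BMP response, and Cdx2, a trophoblast factor and BMP target. The 4 higher were Acvr1b, a Nodal and activin receptor, the co-receptor Rgma, the activin subunit Inhbb and Tbx3. By that fit Zfp423 fell by 0.48 (SE 0.077; edgeR adjusted p = 3.56e-05) and Acvr1b rose by 0.37 (SE 0.071; edgeR adjusted p = 0.000408), both on the log2 scale. Inhbb, with 1.24 and 0.87 CPM before DOX and 2.75 and 1.57 after 24 h, rose by 1.03 (SE 0.284; edgeR adjusted p = 0.0223). Tbx3 and Rgma rose by 0.24 and 0.31, and Cdx2 fell by 0.69 (edgeR adjusted p = 0.0359, 0.0218 and 0.0456). At 12 h the blocked calls were Tgfbr2, Zfp423, Id4 and Smad2, of which Smad2 was higher, at 0.22 (edgeR adjusted p = 0.0442). Id4, the further Id gene, was lower at 12 h by that fit, at -0.60 (SE 0.16; edgeR adjusted p = 0.0211), and not called at 24 h, at 0.21.

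When each of the 10 samples was left out in turn within the blocked fit, Acvr1b and Zfp423 kept the 24 h call and Tgfbr2 the 12 h call in all 10 fits. At 24 h Cdx2, Tbx3 and Tgfbr2 lost it in 4 fits each, and Inhbb and Rgma in 3 each, with adjusted p of up to 0.706, 0.324, 0.35, 0.524 and 0.423. The 12 h calls of Id4 and Smad2 were lost in 4 fits each and that of Zfp423 in 3, with adjusted p of up to 0.3, 0.475 and 0.59. Without 0 h replicate 1, Cdx2 was at -0.36 (edgeR adjusted p = 0.706), Inhbb at 1.11 (0.172), Tbx3 at 0.24 (0.156), Rgma at 0.30 (0.18) and Tgfbr2 at -0.44 (0.212) at 24 h, and at 12 h Id4 was at -0.67 (0.0922), Smad2 at 0.16 (0.389) and Zfp423 at -0.14 (0.59). Cdx2 held 5.84 and 2.51 CPM at 0 h and 3.05 and 1.98 at 24 h, so its high sample was 0 h replicate 1. The 24 h calls of Inhbb (0.146), Rgma (0.124), Tbx3 (0.154) and Tgfbr2 (0.0728) were also lost without 0 h replicate 2. Of the 24 h samples, replicate 1 left out ended the calls of Cdx2 (-0.58), Inhbb (0.70), Tbx3 (0.21) and Tgfbr2 (-0.38), and replicate 2 left out those of Cdx2 (-0.77), Rgma (0.21), Tbx3 (0.26) and Tgfbr2 (-0.58). Cdx2 was just past the threshold without 4 h replicate 2 (0.0502). At 12 h the call of Id4 was also lost without 0 h replicate 2 (0.138) or either 12 h sample (0.3 and 0.0519), that of Zfp423 without either 12 h sample (0.374 and 0.0783), and that of Smad2 without 12 h replicate 1 (0.475) or either 24 h sample (0.0634 and 0.0578).

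By role, 16 of 17 receptors and co-receptors and all 10 SMADs and partners passed the filter, as did 9 of 9 intracellular inhibitors and 4 of 4 genes of ligand processing. Of 14 other ligands 9 passed, of 11 extracellular antagonists 4, of 9 other BMP targets 7 and of 8 other Nodal targets 3. The most counted gene of each list, on mean CPM over 10 samples, was Bmp6 (135.5), Bmpr1a (271.2), Trim33 (364.6), Twsg1 (27.8), Nedd4l (372.4), Pcsk6 (384.0), Tbx3 (111.1) and T (6.59), in the order other ligands, receptors, SMAD partners, extracellular antagonists, intracellular inhibitors, ligand processing, BMP targets and Nodal targets. At 24 h their log2 changes without the block were -0.10, 0.02, 0.03, 0.16, 0.09, 0.10, 0.24 and -0.41, none of them called. T and the other 7 mesendodermal Nodal targets summed to 10.8 to 11.0 CPM at 0 h, 9.41 to 10.1 at 4 h, 7.70 to 8.60 at 8 h, 7.33 to 8.89 at 12 h and 9.65 to 10.2 at 24 h. Both samples at every later time thus lay below both 0 h samples, and the lowest sum was at 12 h. Most of each sum was T. Of all tested genes, 24.9%, 30.0%, 40.6% and 35.8% did not overlap their 0 h samples at 4, 8, 12 and 24 h, in either direction. Fgf8 and Gdf1 were listed at 0 in every sample.

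Tfap2c, a trophoblast marker, was the gene of the cell type lists called at 24 h, and it fell by 0.72 on the log2 scale (SE 0.133; edgeR adjusted p = 0.00835, and 0.0548 over autosomal genes only). It lost the call without 0 h replicate 2 (-0.63, edgeR adjusted p = 0.0751) and without 24 h replicate 1 (-0.61, 0.13). The summed levels of 3 marker lists were lower at 12 and 24 h, when the Lefty pair was called, and already at 8 h, when it was not. The trophoblast sum was 20.8 to 25.7 CPM at 0 h, 18.9 to 20.1 at 12 h and 14.05 to 16.0 at 24 h. The mesoderm sum, which shares T, Eomes and Mixl1 with the Nodal targets, was 10.8 to 11.2 CPM at 0 h, 7.05 to 8.80 at 12 h and 8.98 to 10.1 at 24 h. The neural sum was 8.44 to 10.2 CPM at 0 h, 7.46 to 7.62 at 12 h and 6.02 to 8.39 at 24 h. In all 3 lists the 12 h and 24 h samples lay below both 0 h samples, for the neural sum at 24 h only by 8.39 against 8.44. So did the 8 h samples, at 20.6 to 20.83 CPM (trophoblast, against 20.84), 7.80 to 8.90 (mesoderm) and 6.61 to 7.10 (neural). At 4 h the mesoderm sum, 9.68 to 10.57 CPM, was also below 0 h, and the other 2 sums overlapped it. Each sum came mostly from 1 gene, by mean CPM over 10 samples Tfap2c (13.1), T (6.59) and Nes (7.28). Nes was the only neural marker that passed the filter. Of all tested genes, 40.6% at 12 h and 35.8% at 24 h did not overlap their 0 h samples, in either direction. The primitive endoderm and fibroblast sums overlapped 0 h at 12 and 24 h. The part of these marker lists in the fall of the pair was not tested.

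Likeness to Id1 and Lefty1 was measured as Pearson's r of log2(CPM + 1) over the 10 samples, among 10151 genes with a mean CPM of at least 5, and describes samples that share their times and libraries. The genes most like Lefty1 were Tsr2 (r = 0.95), Apex2 (0.95), Fermt1 (0.94), Tmsb4x (0.94) and Shroom2 (0.94). All but Fermt1, which is on chromosome 2, are X-linked. Fermt1 was at a mean of 14.6 CPM at 0 h and 5.23 at 24 h, and Apex2 at 60.3 and 31.4. The genes most like Id1 were Rnaseh2b (r = 0.90), Serpinb6a (0.90), Ddx19b (0.88), Zfp35 (0.86) and Asrgl1 (0.86). These genes differed little between times, as Rnaseh2b was at 129.7 CPM at 0 h and 138.1 at 24 h. Id1 itself had only 22 to 49 counts per sample and no called change in total counts. For both Id1 and Lefty1 the genes named have the highest r of 10151, and the r that unrelated genes would reach was not tested.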

How the data were processed

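The authors trimmed TT-seq reads with Cutadapt 1.16, aligned them with STAR 2.3.0 to mm10 masked at strain variants, kept unique proper pairs, assigned alleles with SNPSplit 0.3.2 and counted by strand over whole gene spans with featureCounts 1.5.1, by the study's methods (the submitters' processing notes name TopHat2 2.1.0). The deposited tables of the authors hold raw counts of all, B6 and Cast read pairs per gene, and a fraction, B6 over B6 plus Cast, which equalled the count ratio within 1e-05 and was used only for that check. Spike-in scaling is not stated for these values, so all levels are relative.

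CPM is the count per 1000000 of a sample's total count (18809046 to 22274929). Tests used edgeR 4.0.16 in R 4.3.3 (filterByExpr, TMM, quasi-likelihood, all 10 samples, time as a factor, two-sided, Benjamini-Hochberg over all tested genes). Allelic ratios used the B6 and Cast columns with an intercept per sample. DESeq2 1.42.0, other scalings, no filter, a replicate block, left-out samples and, added after seeing the data, autosomal adjustment or scaling and left-out samples within the block were tried. On simulated counts for 24 h against 0 h (14358 genes), 100 of 100 changes of 1 on the log2 scale and 40 of 100 of 0.5 were recovered, with 2.8% false calls. The simulation had the same dispersion for every gene and time, no replicate effect, and changes only in genes with a mean count of at least 100. It therefore gives no rates for the Id genes, which had fewer reads, or for the wider spread of the 0 h pair. Deviations from the time means of samples with the same replicate number, across genes, correlated for all 10 pairs of times (r 0.142 to 0.281), so the numbers in the labels pair the samples. The study speaks of biological duplicates, and the labels give only replicate numbers, so p-values measure the spread between these samples. Wilson intervals cover counting error only.

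The 9 genes and the lists were chosen with earlier results of these data known. Named from the wider lists were genes with an adjusted p under 0.05 against 0 h or for any change, with or without the block, and the most counted gene of each list. For likeness the 5 genes with the highest r were named. Tfap2c was named after its values were seen. Promoters are from RefSeq (GRCm38.p6), and transcripts and exons from GENCODE M21. Figures were drawn with matplotlib 3.10.9 under Python 3.11.15.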

Additional observations from a re-analysis of the deposited data

How the results depend on the processing

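Over alternatives, the direction of Lefty1 and Lefty2 at 12 and 24 h did not change. The number of the 9 genes called was 0 at 12 h, 1 at 24 h and 1 for any change when p-values were adjusted over autosomal genes only, an adjustment added after seeing the data in which 1, 16 and 12 genes in all were called. Leaving out each sample in turn gave 0 to 2 genes at 12 h, 1 to 2 at 24 h and 1 to 2 for any change, where a lone sample is assumed to vary like the others. The allelic test with at least 50 allelic reads called 3 genes, since Bmp4 and Id1 have fewer reads. With the replicate block 1 of the 9 was called from 8 to 12 h (Lefty1), and apart from that and the added call of Bmp4 the block changed no other call of the 9 genes. It raised the calls over all genes from 138 to 718 at 12 h, from 269 to 773 at 24 h and from 181 to 889 for any change. Without the filter on low counts 266, 390 and 385 genes were called, and DESeq2 called 189, 284 and 280. With left-out samples the log2 change at 24 h ran from -0.055 to 0.171 for Id3 and from -0.357 to 0.16 for Smad6, and the log2 B6 to Cast ratio of Nodal from 0.0 to 0.073, none of them called. Id3 had unequal alleles without 0 h replicate 1 (0.49, edgeR adjusted p = 0.0446). Of 703 comparisons of a named gene with an alternative, 647 kept direction and side of the threshold, 30 lost the call, 22 gained it and 4 changed sign. At 19 to 101 counts per sample, the Id genes had wide intervals, and the size of change that the adjusted test would call in them was not measured. An interval that leaves out 0 did not ensure a call. That of Bmp4 at 24 h was 0.23 to 0.93, and Bmp4 was not called without the block.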
